A study of Mus musculus and Homo sapiens with 40 samples.

Results

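The genes described here are 35 human genes of protein folding and quality control in the endoplasmic reticulum (ER), out of 19663 protein-coding genes with a distinct symbol in GENCODE. They were taken as a fixed list of symbols, and all 35 were found in the annotation. They comprise 11 chaperones and their cofactors, 5 genes of oxidative folding, 9 of ER-associated degradation, 3 of translocation or calcium balance, and 7 stress sensors or transcription factors. For each gene, the binding sites of the transcription factor ATF4 were looked up at its promoter, in its body and within 50 kb, together with the rank of each site in the ATF4 list.

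The ATF4 list came from ChIP-seq of KO-52 cells, a human acute myeloid leukemia line with biallelic *CEBPA* mutations, exposed to tunicamycin at 2 µg/mL for 4 h. Tunicamycin blocks N-glycosylation and thereby causes ER stress. This was 1 library, with an input library of the same cells as control, and no ATF4 library from unstressed cells was analysed here, so the sites are those of treated cells with no untreated level beside them. The other 38 of the 40 samples came from mouse HPC-7 cells, a hematopoietic progenitor line that carried CEBPA p42 (full length) or p30 (shorter isoform) fused to ERT2. Some of the H3K27ac samples were given LPS for 2 h at 100 ng/mL, and for these mouse cells untreated means without LPS. According to the study's methods, cells with such a fusion received hydroxytamoxifen before the experiment, to bring the fusion into the nucleus. Untreated therefore does not mean without this inducer. The promoter peaks of the mouse samples at the orthologs of the 35 genes are given last.

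ER stress activates the unfolded protein response. The membrane sensors IRE1 (gene *ERN1*), PERK (*EIF2AK3*) and ATF6 detect misfolded protein. IRE1 splices the mRNA of the transcription factor XBP1, ATF6 is cut to release a transcription factor, and PERK phosphorylates eIF2α, which raises translation of ATF4. ATF6 and XBP1 are best known for inducing chaperones and degradation genes through ER stress elements in their promoters, and ATF4 for inducing genes of amino acid supply and stress adaptation. ATF4 pairs with C/EBP proteins on a composite of their motifs, the C/EBP-ATF response element.

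The list held 16305 sites on the standard chromosomes. A site was ranked by the p-value that the authors' peak caller gave it, with rank 1 the strongest, and its height was the fold enrichment at the summit, for which the median over all sites was 7.81. With a single library there was no replicate check on any value, and the list does not give the read depth behind it. Shares of genes or sites carry 95% Wilson intervals, which take in counting error and nothing else.

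The strongest sites of these genes carried the composite TGATGCAA close to the summit. The following are the 60 bases (hg38, 5′ to 3′ on the strand that reads TGATGCAA) around this element, shown in capitals, for the 9 sites with a composite that ranked in the strongest 10% of the list, and for the remaining promoter site that held it. They are shown to let the element and its flanks be compared between genes, and sites without the composite, such as that of *ATF6*, are not included. The promoter sites were set by the rule for named genes, and the others were added after their ranks were seen.
EDEM1 intron, rank 2, chr3:5197754-5197813, minus strand: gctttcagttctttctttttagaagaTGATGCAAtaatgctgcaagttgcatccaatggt
CREB3L1 upstream, rank 8, chr11:46243352-46243411, plus strand: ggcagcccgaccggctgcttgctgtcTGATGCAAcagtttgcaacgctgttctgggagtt
SEL1L intron, rank 78, chr14:81529614-81529673, minus strand: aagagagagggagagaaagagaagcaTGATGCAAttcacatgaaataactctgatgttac
DNAJC3 intron, rank 151, chr13:95756306-95756365, plus strand: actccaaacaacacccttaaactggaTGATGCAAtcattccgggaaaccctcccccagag
HERPUD1 promoter, rank 177, chr16:56931940-56931999, minus strand: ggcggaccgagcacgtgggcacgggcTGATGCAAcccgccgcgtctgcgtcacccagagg
HSPA5 upstream, rank 251, chr9:125243444-125243503, minus strand: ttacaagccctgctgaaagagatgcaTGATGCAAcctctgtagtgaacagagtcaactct
XBP1 promoter, rank 256, chr22:28799341-28799400, minus strand: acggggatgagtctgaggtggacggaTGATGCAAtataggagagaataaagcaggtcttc
ERN1 intron, rank 410, chr17:64082318-64082377, plus strand: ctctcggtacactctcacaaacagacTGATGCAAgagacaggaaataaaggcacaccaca
HERPUD1 alternative promoter, rank 1064, chr16:56936617-56936676, minus strand: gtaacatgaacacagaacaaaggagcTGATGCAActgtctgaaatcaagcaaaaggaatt
HERPUD1 promoter of a further start, rank 5659, chr16:56933482-56933541, minus strand: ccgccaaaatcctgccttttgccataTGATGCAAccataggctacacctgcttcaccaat

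Of the 35 genes, 6 had an ATF4 site at a promoter, defined as a summit within 1 kb of the start of any protein-coding transcript. These were *HERPUD1*, *XBP1*, *ATF6*, *HYOU1*, *ERO1B* and *CALR*. This was 17.1% (8.1 to 32.7%), and 4.62% of all protein-coding genes had such a site. With promoters cut to 500 bp the count was 2 of 35, or 5.71%, and 3.07% of all genes. A site in the gene body was present in 9 genes (25.7%, 14.2 to 42.1%), and in 22.0% of all genes. Any site within 50 kb was present in 23 genes (65.7%, 49.2 to 79.2%), and in 57.6% of all genes. For the gene body and for 50 kb, the share of all genes lay inside the interval of the 35 genes. A site from the strongest 10% of the list lay within 50 kb of 9 genes (25.7%, 14.2 to 42.1%), and of 10.9% of all genes. The class of the strongest 10%, used here and by role below, was added after the data were seen. The 35 genes had a median span of 23825 bp, and all genes of 27326 bp. No mark of active genes in KO-52 cells was analysed here. The shares were therefore not compared among active genes only, and whether activity bears on them was not tested.

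The 23 genes held 44 sites, none of them shared between members. Of these, 8 lay at promoters, 14 in gene bodies and 22 in the flanks. By annotation at the summit, 31 were in introns, 11 between genes and 2 in untranslated exon sequence. The heights ran from 4.47- to 110.3-fold, with a median of 7.81, the same as over all sites. Of the 44 sites, 10 (22.7%) ranked in the strongest 10% and 22 ranked below the middle of the list. The nearest protein-coding start was that of the member for 28 sites and that of another gene for 16. How all sites of the list divide by body, flank and annotation was not counted, so these splits describe the 44 sites alone.

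**Figure D1:**
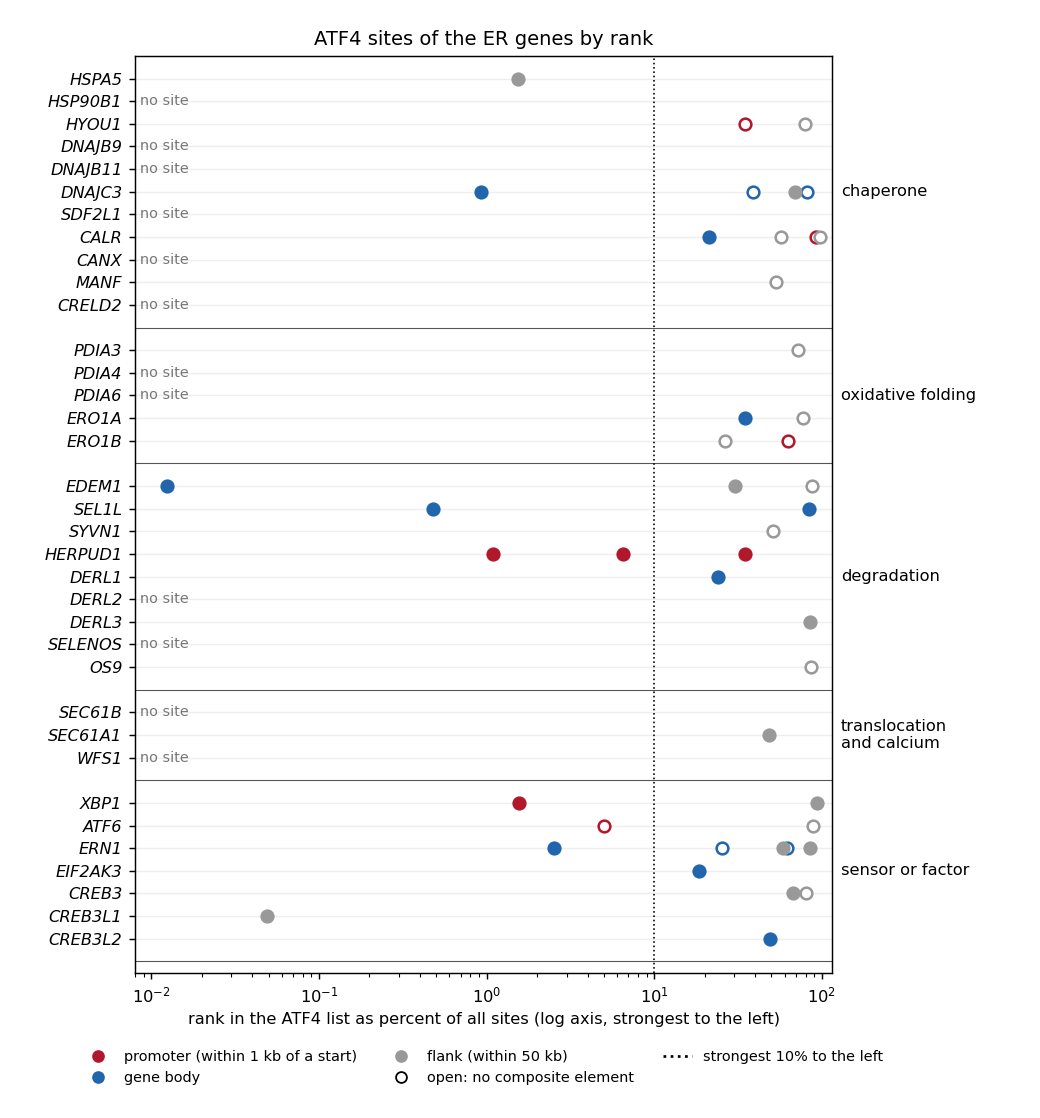
Each row is 1 of the 35 genes, grouped by role, and each point an ATF4 site at its rank as a percent of the 16305 sites on a log axis, with the strongest at the left. Filled points hold the composite TGATGCAA within the 200 bp around the summit and open points do not. The 10 sites left of the dotted line belong to 9 genes, and 12 genes have no site within 50 kb.

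Among the 9 genes of ER-associated degradation, which export misfolded proteins from the ER for destruction by the proteasome, 7 had a site within 50 kb (77.8%, 45.3 to 93.7%) and 3 had one of the strongest 10% (33.3%, 12.1 to 64.6%). For all genes these shares were 57.6% and 10.9%, and the first lay inside the interval and the second just below it. *HERPUD1*, an ER membrane protein that organizes the degradation complex, had 3 promoter sites, the most of the 35 genes. The strongest (chr16:56931623-56932139) had its summit 180 bp upstream of the gene start, with a fold enrichment of 46.3. The next was 25.5-fold and lay 76 bp upstream of an alternative start, which is 4506 bp into the gene. The third was 9.36-fold, 340 bp downstream of another start. All 3 carried the composite.

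*EDEM1*, a lectin that extracts mannose-trimmed glycoproteins for degradation, held the site of rank 2 in the whole list. It reached 110.3-fold, the greatest height of all 16305 sites, and lay in an intron 9432 bp from the nearest *EDEM1* start (chr3:5197019-5198182). 2 weaker flank sites of *EDEM1* ranked 4967 and 14180. *SEL1L*, the adaptor of the ubiquitin ligase for misfolded proteins, had an intronic site of 45.7-fold 4188 bp from its start (rank 78). Its second site was 5.55-fold, at the far end of the gene. The ligase itself, *SYVN1*, had 1 site of 7.35-fold (rank 8349), 204 bp from the start of *ZNHIT2* and 15415 bp from its own. *DERL1*, a channel component, had an intronic site of 11.1-fold (rank 3892). The only sites of *DERL3* and *OS9*, a lectin, ranked 13948 and 14078 and were nearer to other genes, that of *OS9* 466 bp from *TSPAN31*. *DERL2* and *SELENOS*, also membrane components of this machinery, had no site within 50 kb.

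All 7 sensors and transcription factors had a site within 50 kb (100.0%, 64.6 to 100.0%; 57.6% of all genes), and 4 of 7 had one of the strongest 10% (57.1%, 25.0 to 84.2%; 10.9% of all genes). This group holds long genes, with a median span of 91740 bp, though the spans ran from 4402 to 211277 bp. A longer gene takes in more sites within 50 kb of its span, and whether this bears on either share was not tested. At *XBP1* the site of 38.4-fold (rank 256, chr22:28799037-28799671) lay in an intron, 748 bp downstream of 1 start and 1212 bp downstream of the outermost one. Its window held 2 composites. At *ATF6* the site of 16.9-fold (rank 814) lay 951 bp upstream of the nearest start and held neither the composite nor its relaxed form. By fold enrichment instead of p-value this site ranked 2026, outside the strongest 10%. *ERN1* (IRE1) had 5 sites, the most of any of the 35 genes, of which 3 lay in its introns. Its strongest was 32.8-fold and 47727 bp from the nearest start (rank 410), and the other 4 were between 5.59- and 8.72-fold. *EIF2AK3* (PERK) had 1 intronic site of 13.3-fold (rank 3000).

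Of the CREB3 family, membrane-bound factors released by cleavage like ATF6, *CREB3L1* had the strongest site. It was intergenic, 34293 bp upstream of the gene (chr11:46242894-46243577), ranked 8 in the list and reached 101.7-fold, and no other protein-coding start was nearer. *CREB3L2* had an intronic site of 8.62-fold (rank 7980). *CREB3* had 2 flank sites, of 6.97- and 5.46-fold, both nearer to the start of another gene.

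Of the 11 chaperones and cofactors, 5 had a site within 50 kb (45.5%, 21.3 to 72.0%) and 2 had one of the strongest 10% (18.2%, 5.14 to 47.7%). Both intervals took in the shares of all genes, 57.6% and 10.9%. *HSPA5* encodes BiP, the major ER chaperone of the HSP70 family. Its site was 29.5-fold (rank 251, chr9:125243302-125243873), held 2 composites, and lay between genes 2100 bp upstream of the *HSPA5* start, and so outside the promoter as defined here. *DNAJC3*, a cochaperone and inhibitor of PERK, had an intronic site of 43.0-fold 79172 bp from its start (rank 151), and 3 further sites of 5.01- to 7.02-fold. *HYOU1*, an exchange factor for BiP, had a promoter site 7 bp downstream of a start, of 9.36-fold (rank 5651), without the composite. *CALR*, the lectin chaperone calreticulin, had 4 sites. The intronic one was 12.9-fold (rank 3445) and the promoter one 4.98-fold (rank 15034). *MANF*, a secreted ER stress factor, had 1 flank site of 8.08-fold, nearest to *RBM15B*.

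The other 6 chaperone genes had no site within 50 kb. *HSP90B1* (GRP94) was 266295 bp from the nearest site, *DNAJB9* 334891 bp, *CANX* (calnexin) 223341 bp and *CRELD2* 184926 bp. *SDF2L1*, at 59373 bp, and *DNAJB11*, at 51924 bp, lay just beyond the limit. Just inside it, *SEC61A1* was counted through a single site 41202 bp upstream. At the 1 kb limit for promoters, *ATF6* (951 bp) and *CALR* (906 bp) lay just inside, and *HSPA5* (2100 bp) was the first outside.

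Of the 5 genes of oxidative folding, 3 had a site within 50 kb (60.0%, 23.1 to 88.2%) and none had one of the strongest 10% (0 of 5, with a Wilson limit of 43.4%), where all genes stood at 57.6% and 10.9%. *ERO1A*, an oxidase that recharges protein disulfide isomerases, had an intronic site of 9.91-fold (rank 5708) and a flank site of 6.35-fold. *ERO1B* had a promoter site 630 bp upstream of a start, of 6.83-fold (rank 10195), and a flank site of 12.4-fold in an intron of *GPR137B*. The isomerase *PDIA3* had 1 flank site of 5.38-fold, nearest to *HYPK*. *PDIA4* and *PDIA6* were 120658 and 139273 bp from the nearest site. Of the 3 genes of translocation and calcium balance, the translocon subunit *SEC61A1* had 1 flank site of 8.62-fold (rank 7898). *SEC61B* and *WFS1*, a membrane protein of ER calcium balance, had none within 50 kb.

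**Figure D2:**
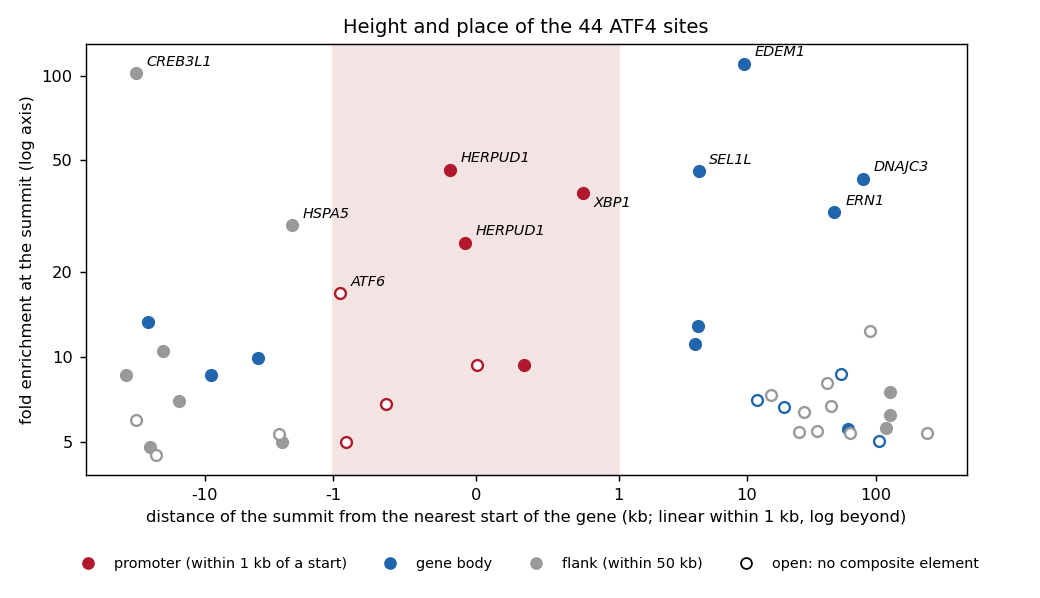
Fold enrichment at the summit (log axis) of the 44 ATF4 sites against the distance of the summit from the nearest start of the gene (kb, linear within 1 kb and log beyond). The shaded band is the promoter, colours give the class of the site, open points lack the composite, and the named points are the 10 sites of the strongest 10%. The 2 highest, at *EDEM1* and *CREB3L1*, lie outside the band.

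Of the 10 sites in the strongest 10%, 4 lay at a promoter, those of *HERPUD1* (2 sites), *XBP1* and *ATF6*. The other 6 lay 2100 bp or more from the nearest start of the gene. Of the 6 genes with a promoter site, 3 had one in the strongest 10%, and the promoter sites of *HYOU1*, *ERO1B* and *CALR* were between 4.98- and 9.36-fold. The median height of all promoter sites in the list was 8.19-fold.

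Other lists of genes were set beside the 35 for scale. Among 76 other ER protein quality control genes, 10 (13.2%, 7.31 to 22.6%) had a promoter site and 44 (57.9%) had a site within 50 kb. The best-ranked promoter sites there were those of *TXNDC12* (rank 194, 36.8-fold), *TMBIM6* (rank 1260, 23.1-fold) and *SEC63* (rank 1733, 17.0-fold). Among 24 stress response effectors of ATF4, 17 (70.8%, 50.8 to 85.1%) had a promoter site, led by *CHAC1* (rank 4), *TRIB3* (rank 5) and *DDIT4* (rank 32). Among 37 amino acid and tRNA-charging genes, 31 (83.8%, 68.9 to 92.3%) did, led by *YARS1* (rank 1), *SARS1* (rank 13) and *SHMT2* (rank 18). The intervals of both these lists lay above that of the 35 ER genes, and the interval of the other ER genes overlapped it. The stress and amino acid lists hold the kinds of gene that ATF4 is best known for inducing. All the lists were chosen with earlier results of these data known.

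The lists also differed in the rank of the best site. Among genes with a site within 50 kb, the median of the best rank, as a percent of the list, was 23.9 for the 35 genes (23 with a site), 18.4 for the other ER genes, 1.37 for the stress effectors, 0.889 for the amino acid and tRNA-charging genes and 34.9 for all genes. By role, it was 4.99 for the 7 sensors and factors, 21.1 for the 5 chaperones with a site, 23.9 for the 7 degradation genes and 35.0 for the 3 oxidative folding genes. The median span was 91740 bp for the sensors and factors and 9374 bp for all 11 chaperones, and a longer gene takes in more sites. A best site could also lie nearer to another gene. The bearing of either point on the ranks by role was not tested.

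**Figure D3:**
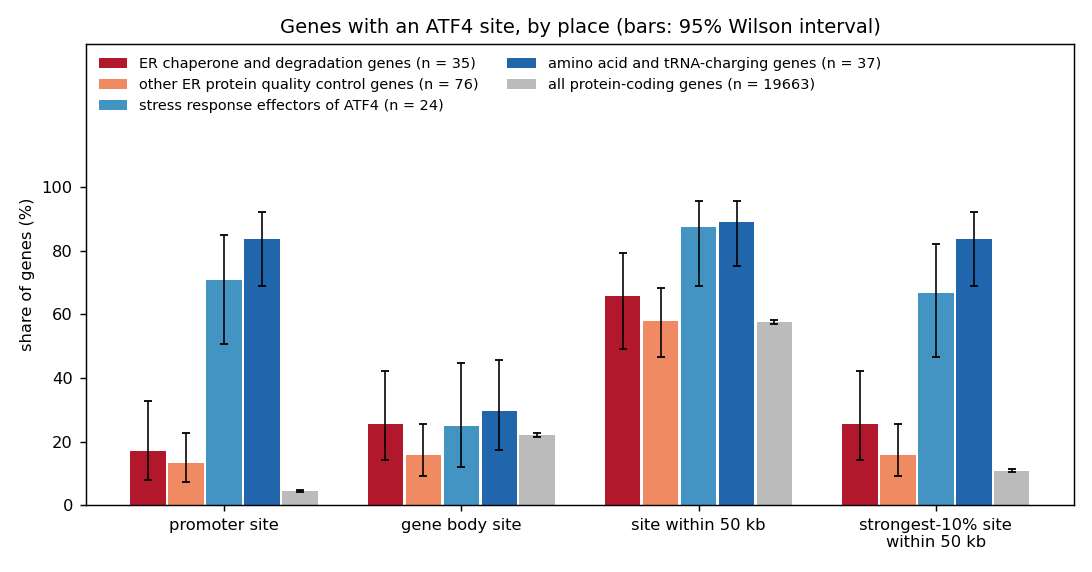
Share of genes (%) with an ATF4 site at the promoter, in the gene body, within 50 kb, and with a site of the strongest 10% within 50 kb, for the 35 ER genes, 3 other lists and all protein-coding genes, with 95% Wilson intervals. At promoters the 35 genes stand at 17.1%, against 70.8% and 83.8% for the stress and amino acid lists and 4.62% for all genes.

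The composite TGATGCAA was found, on either strand, within the 200 bp around the summit in 24 of the 44 sites (54.5%, 40.1 to 68.3%). It was present in 65.2% of all ATF4 sites, in 40.7% of all promoter sites and in 0.767% of windows placed 5 kb away. It was present in 9 of the 10 member sites of the strongest 10%, with the site of *ATF6* as the exception, and in 15 of the other 34 (44.1%, 28.9 to 60.5%). Over all sites these shares were 77.2% and 63.9%. In the 9 strong sites the element lay at most 16 bp from the summit. By class, 10 of 14 gene body sites, 10 of 22 flank sites and 4 of 8 promoter sites held it. A relaxed form, TGATG and AA 1 base apart, which includes the composite, was present in 37 of 44 sites (84.1%, 70.6 to 92.1%), in 86.4% of all sites and in 4.22% of windows 5 kb away.

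Further letters searched on both strands in the same windows were the CRE palindrome TGACGTCA, the unfolded protein response element (UPRE) TGACGTGG, the C/EBP palindrome TTGCGCAA and the ER stress element (ERSE, CCAAT and CCACG 9 bases apart). None was found in the 44 windows, and 0 of 44 allows a share of up to 6.82% by the rule of 3 counts and of up to 8.03% by the Wilson interval. Over all sites each was present in 0.141% or less. ERSE-II (ATTGG and CCACG 1 base apart) was found once, at the *HERPUD1* promoter site. The composite written backwards, AACGTAGT, as a control of letter content, was in 0 of 44 sites and 0.117% of all sites.

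The promoters of the 35 genes, taken as 250 bases before to 50 bases after the outermost start of the gene, were searched for the same letters. ERSE was found in 4 of 35 (11.4%, 4.54 to 26.0%; 0.0865% of all promoters), those of *HSPA5*, *CALR*, *ERO1B* and *XBP1*. ERSE-II was found in 3 (8.57%, 2.96 to 22.4%; 0.0712% of all promoters), those of *HERPUD1*, *SDF2L1* and *HYOU1*, which held 2. Of the 35, a UPRE was found at *HYOU1*, overlapping 1 of its ERSE-II elements (0.773% of all promoters). In all, 7 of 35 promoters (20.0%, 10.0 to 35.9%) held any of the 3, and 0.926% of all promoters. The ATF4 composite was found in 1 of 35, that of *HERPUD1*, 176 bases before the gene start, and in 0.697% of all promoters. The elements are given here in capitals with their flanks (hg38, 5′ to 3′ on the strand of the gene), since they are the elements through which ATF6 and XBP1 are known to act. Where capitals read CGTGG before ATTGG or CCAAT, the element is on the opposite strand.
HSPA5, ERSE, chr9:125241385-125241415: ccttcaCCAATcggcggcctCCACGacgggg
CALR, ERSE, chr19:12938378-12938408: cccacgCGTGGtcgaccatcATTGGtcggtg
ERO1B, ERSE, chr1:236282177-236282207: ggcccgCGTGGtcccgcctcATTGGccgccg
XBP1, ERSE, chr22:28800598-28800627: cgctggCCAATcgcggagggCCACGaccgt
HERPUD1, ERSE-II, chr16:56932019-56932041: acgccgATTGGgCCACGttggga
SDF2L1, ERSE-II, chr22:21642108-21642130: cggaagCGTGGaCCAATcaaaac
HYOU1, UPRE and 2 ERSE-II, chr11:119057268-119057399: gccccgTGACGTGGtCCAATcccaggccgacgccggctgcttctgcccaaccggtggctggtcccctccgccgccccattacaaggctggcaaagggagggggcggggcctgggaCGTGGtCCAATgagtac

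Of the 7 genes with such an element, 5 also had an ATF4 promoter site, and of the 28 without, 1 had (*ATF6*). Among all genes, with the members included, the shares were 7.14% of 182 and 4.59% of 19481. Of the 182 genes, 13 had a site, and 5 of these were the members just counted. The difference between these shares is therefore not independent of the members, and does not show one among the other genes. This split was looked at after the data were seen and rests on few genes. When the promoter of every protein-coding transcript was searched, 11 genes held an element, with *HSP90B1*, *CANX*, *CRELD2* and *PDIA6* added, none of which had an ATF4 site within 50 kb. Of all genes, 1.82% held one. The counts were then 5 of 11 and 1 of 24, and among all genes 6.7% of 358 and 4.58% of 19305. The 358 genes also included the members, which made up 5 of the 24 with a site. The ATF4 summits did not lie on the elements. At *HERPUD1* the nearest summit was 68 bp from the middle of the ERSE-II, at *HYOU1* 157 bp, at *ERO1B* 396 bp, at *CALR* 690 bp and at *XBP1* 1227 bp from the ERSE. *HSPA5* and *SDF2L1* held an element and no promoter site.

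**Figure D4:**
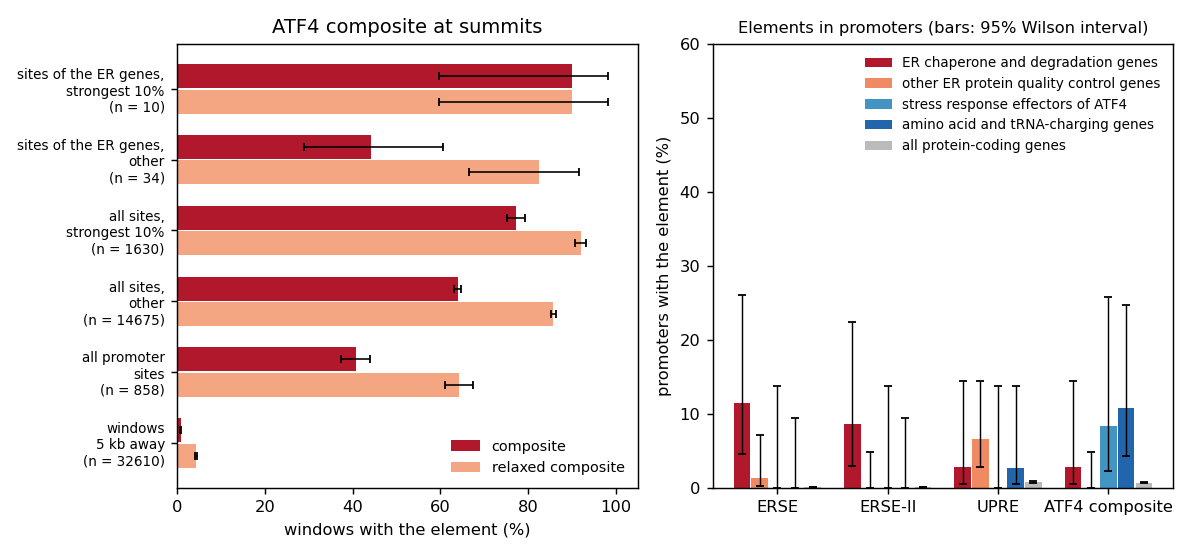
Left, share (%) of 200 bp windows with the ATF4 composite or its relaxed form, for the sites of the 35 genes, all sites and windows 5 kb away. Right, share (%) of promoters with ERSE, ERSE-II, UPRE or the composite for the 35 genes, 3 other lists and all genes. Bars carry 95% Wilson intervals. The composite is in 9 of 10 strong sites of the 35 genes and in 77.2% of all strong sites. It is in 1 of their 35 promoters and in 0.697% of all promoters.

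The mouse lists were used to see which orthologs carried CEBPA and H3K27ac at their promoters. All 35 were matched by symbol in the mouse annotation, among 21562 protein-coding genes. The cells were HPC-7 progenitors with CEBPA p42-ERT2 or p30-ERT2, not given tunicamycin, so species, cell line and treatment all differ from the ATF4 library and cannot be told apart. Each CEBPA list came from 1 library, made with an antibody against CEBPA or against the ER (estrogen receptor) part of the fusion. H3K27ac, a mark of active promoters and enhancers, was called on 3 pooled samples per group, untreated or with LPS at 100 ng/mL for 2 h.

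With anti-CEBPA, 11 orthologs (31.4%, 18.6 to 48.0%) had a promoter site in p42 cells, and 10.8% of all genes. In p30 cells 13 (37.1%, 23.2 to 53.7%) did, and 10.4% of all genes. With anti-ER the counts were 8 in p42 cells (22.9%, 12.1 to 39.0%; 9.62% of all genes) and 14 in p30 cells (40.0%, 25.6 to 56.4%; 15.2% of all genes). The lists differed in size, from 23248 to 47517 sites. With the larger list of each antibody cut to the number of sites in the smaller, the counts with anti-CEBPA were 6 in p42 (17.1%; 7.68% of all genes) and 13 in p30 cells, and with anti-ER 8 in p42 and 11 in p30 cells (31.4%; 10.2% of all genes). With 1 library per list, a difference between p42 and p30 cells could not be tested. The CEBPA shares were not compared among only the genes with promoter H3K27ac. In untreated cells of either line, 88.6% of the orthologs and 51.9% of all genes had that mark.

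*Atf6*, *Calr*, *Derl2*, *Ero1a*, *Herpud1*, *Manf* and *Sel1l* had a promoter site in all 4 CEBPA lists (20.0%, 10.0 to 35.9%; 6.05% of all genes). In any of the 4, 17 orthologs had one (48.6%, 33.0 to 64.4%; 18.9% of all genes). *Herpud1* was the strongest of them in each list, with summits 84 to 100 bp upstream of a start and folds of 25.1 (p42) and 30.3 (p30) with anti-CEBPA and of 29.8 (p42) and 57.8 (p30) with anti-ER. *Ero1a* was next, at 14.2- to 21.1-fold. Of the 6 genes with an ATF4 promoter site in KO-52 cells, the orthologs of 5 were among the 17 (*Atf6*, *Calr*, *Herpud1*, *Hyou1* and *Xbp1*), and *Ero1b* was not. Of the other 29 orthologs, 12 were (41.4%, 25.5 to 59.3%).

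H3K27ac peaks lay at the promoters of 31 orthologs in untreated p42 cells (88.6%, 74.0 to 95.5%; 51.9% of all genes) and of 31 with LPS (51.5% of all genes). In p30 cells they lay at 31 untreated (51.9% of all genes) and at 32 with LPS (91.4%, 77.6 to 97.0%; 53.1% of all genes). The same 31 had a peak in all 4 lists (49.9% of all genes did), and *Creb3l1* was added by a peak of 2.48-fold in p30 cells with LPS. *Derl3*, *Wfs1* and *Creb3l2* had none in any. Of the 11 chaperone orthologs all 11 carried the mark in each list, those without an ATF4 site near the human gene included. *Canx* was the highest of the 35 in each list, at 82.2- to 120.2-fold.

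**Figure D5:**
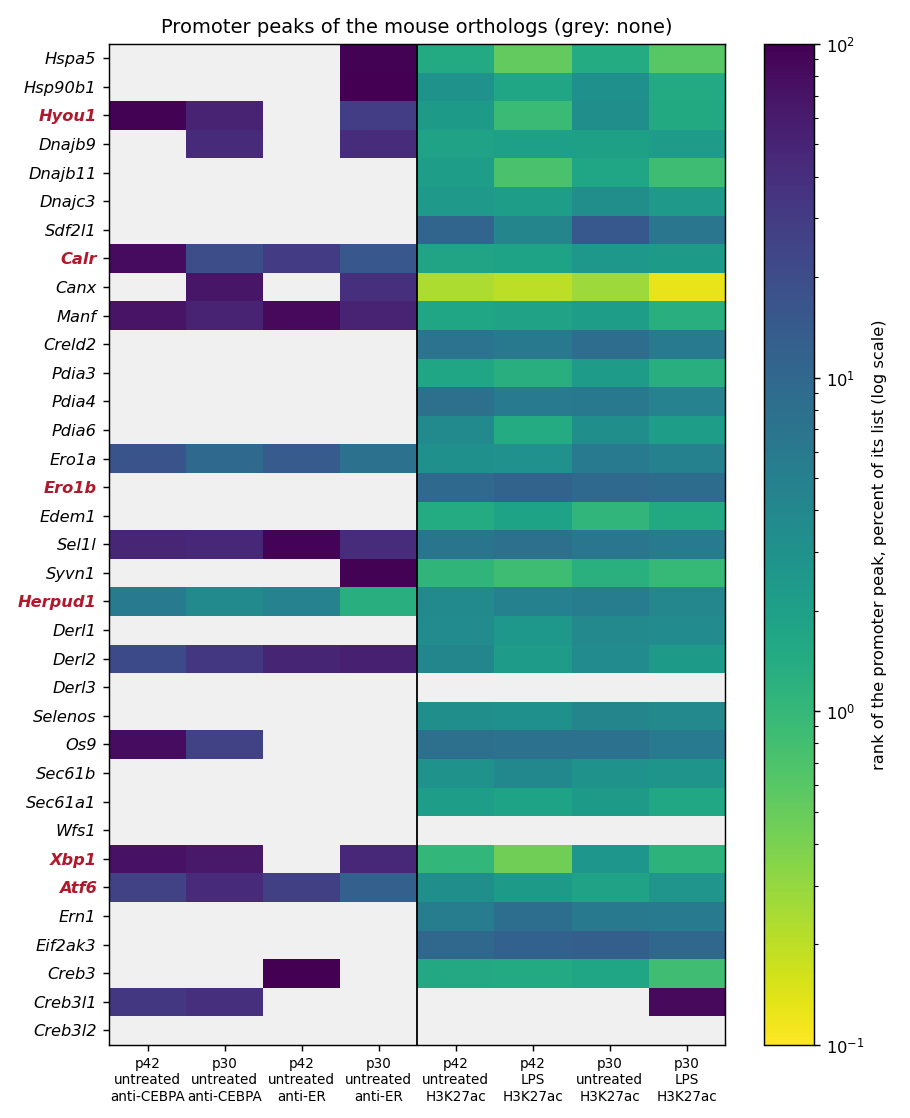
Promoter peaks of the 35 mouse orthologs (rows) in 4 CEBPA lists and 4 H3K27ac lists (columns). The colour is the rank of the best promoter peak as a percent of its list on a log scale, grey means none, and red names mark genes with an ATF4 promoter site in human KO-52 cells. *Herpud1* has the best-ranked CEBPA site of the 35 in each list, and 31 orthologs carry H3K27ac in all 4.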

How the data were processed

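Peak lists of ChIP-seq from human KO-52 and mouse HPC-7 cells were used. According to the study's methods, reads were trimmed with Trim Galore 0.6.6 and aligned with Bowtie2 to hg38 or mm39, duplicates were excluded with Picard, and peaks were called with MACS2 against input. KO-52 chromatin for ATF4 received an additional protein crosslink. Each deposited list gives the authors' fold enrichment at the summit, and the −log10 of a p-value and of a q-value. These values were used to rank, filter and describe sites within their own list. Read depth is not given by the lists. ATF4 and CEBPA lists came from 1 library each, and H3K27ac lists from pooled samples. H3K4me1 lists were not used here.

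Groups were taken from the sample labels. Summits were placed with GENCODE release 44 (hg38) and M39 (mm39), keeping the longest of records that share a symbol. A promoter site had its summit within 1000 bp of a protein-coding start, a body site lay elsewhere in the gene, and sites within 50 kb of the gene were counted in any class. For H3K27ac, a peak that covered a start also counted as a promoter peak. Motifs were searched as exact letters on both strands in 200 bp around summits and in promoters read from hg38. A table of mouse promoters of another build was not used.

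The 35 genes, the lists, motifs and alternatives were chosen with earlier results of these data known. All 35 are accounted for. Genes with a promoter site are named with rank, fold, distance and motif, other genes with their best site, and each other list with its 3 best-ranked promoter genes. The class of the strongest 10% and the search at every start were added after the data were seen. With 1 library no test was made. The alternatives were q-values under 1e-05 and 1e-10, other promoter and flank limits, whole peaks, gene starts only, nearest genes, genes of like span, ranking by fold, other windows and equal list sizes within an antibody. The steps were tested on simulated data. Tables were handled in pandas 2.3.3 and numpy 2.4.6 under Python 3.11.15, and figures drawn in matplotlib 3.10.9.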

Additional observations from a re-analysis of the deposited data

How the results depend on the processing

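Of 31 values recomputed under an alternative, 27 stayed within 1.5 times the count, or within the interval of the share or median. The others were the promoter count at 500 bp (2 of 35), the composite in its relaxed form (84.1% of sites), the promoters with an ER stress element or UPRE at every start (11) and the p42 anti-CEBPA orthologs with equal list sizes (6). By construction, the first and the last use fewer sites, and the others allow more matches. At q-values under 1e-10, 4 genes kept a promoter site (11.4%; 2.79% of all genes) and 19 a site within 50 kb (54.3%; 39.6% of all genes). Counting only sites nearest to the gene itself left 17 genes (48.6%; 33.4% of all genes). Ranking by fold changed the side of the strongest 10% for *ATF6* among 23 genes. No paired analysis was possible because each list is 1 library or a pool, and for the same reason no replicate could be left out. Depth limits the weakest sites, and a gene without a listed site had none that passed the authors' threshold.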

Other observations

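Among the 76 other ER protein quality control genes, 5 promoters held a UPRE (6.58%, and 0.773% of all promoters). An ERSE was in 1 (1.32%, and 0.0865% of all promoters). None held an ERSE-II or the ATF4 composite, found in 0.0712% and 0.697% of all promoters, and 0 of 76 allows up to 4.81%. The composite was present in the promoters of 2 of 24 stress effectors (8.33%, 2.32 to 25.8%). It was in those of 4 of 37 amino acid and tRNA-charging genes (10.8%, 4.29 to 24.7%).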
